A study of Homo sapiens with 12 samples.

Results

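MCF-12A cells treated with TGFbeta1 were compared with control cells in 6 libraries, 3 per group, out of 12 libraries in the series. MCF-12A is an immortal line of mammary epithelial cells that do not form tumours, so a single cell line stands for the tissue here. The agent is labelled control or TGFbeta1, and no other treatment or genetic change is named for either group. The sources used here state neither dose nor duration of the treatment. Whether the 3 libraries of a group are separate cultures is not stated either, so every p-value reflects library-to-library spread alone, which may be technical. Levels are fragments per kilobase of transcript, scaled to library depth (FPKM), a unit read from the values, summed per gene over protein-coding transcripts. Of 13410 genes listed, 10454 had a mean of at least 1 FPKM and were tested. The other 6 libraries were not analysed here, and nothing below says whether a change recurs in them.

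TGFbeta1 is secreted as a latent complex that stays bound to matrix proteins until integrins or proteases release it. The released ligand binds a pair of receptor kinases, which phosphorylate SMAD2 and SMAD3. These enter the nucleus with SMAD4 and act with other transcription factors, while SMAD7, SKI proteins and ubiquitin ligases damp the signal. In cultured epithelial cells the cytokine is known for slowing growth, for inducing matrix and adhesion genes, and for driving an epithelial-mesenchymal transition (EMT).

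Levels in the 6 libraries separated by group. Across genes, log2(FPKM + 1) correlated at r = 0.949 to 0.955 between libraries of the same group and at 0.905 to 0.909 between groups, where the points are genes of the same libraries and not replicates. All 6 basal mammary markers were tested, 1 was higher (ITGB4) and 1 lower (KRT5), and their summed level was 2327 to 3070 FPKM in controls and 2053 to 2071 with TGFbeta1. Of 7 luminal markers 6 were listed, with 305 to 399 FPKM in sum in controls and 225 to 450 with TGFbeta1, nearly all from KRT8 and KRT18. In bulk RNA, fewer cells of a type and less RNA per cell cannot be told apart. KRT18 was at 233, 250.5 and 301 FPKM in the controls and 139.9, 138 and 188 with TGFbeta1, a fall whose call was lost without control 2, control 3, TGFbeta1 1 or TGFbeta1 2. KRT8 did not follow, at 63.9, 57.6 and 93 FPKM in the controls and 90.6, 82.3 and 258 with TGFbeta1, and was not called. Its high value was in TGFbeta1 3, the library with the luminal sum of 450. Defining markers of other cells were near or at 0. Of 5 fibroblast markers only COL6A3 was listed, and their summed level was 0.0891 to 0.186 FPKM in controls and 0.43 to 0.855 with TGFbeta1. Of 5 leukocyte markers only LYZ was listed, at 0 to 0.12 FPKM, and of 4 endothelial markers only KDR, at 0.0345 to 0.0823 FPKM. Of 3 adipocyte markers PLIN1 and FABP4 were listed, with 0.16 to 0.212 FPKM in sum in controls and 0.275 to 1.04 with TGFbeta1.

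The test called 2186 of 10454 genes, or 20.9%, at an adjusted p under 0.05. It called 941 higher with TGFbeta1 (9%) and 1245 lower (11.9%). The change was at least 1 on the log2 scale in 277 higher and 256 lower genes, and at least 3 in 12 and 24. The falls therefore reached further than the rises: 10 genes fell by 4 or more and 1 gene, ADAM19, rose by as much. The median over all tested genes was -0.055. The split of calls turned with scaling, since equal sums per library gave 1160 higher and 857 lower (57.5% higher, against 43.1% here). With 1 library fewer the counts were 1390 without control 1, 1437 without control 2, 1365 without TGFbeta1 1 and 1354 without TGFbeta1 2. Of the 2186 called genes, 979 (479 higher and 500 lower) kept their call in each of 16 other settings that tested them. Unless a lost call is named beside it, every gene written here as having risen or fallen is among these 979, a count that covers genes and not single transcripts. Each log2 change compares means of log2(FPKM + 1), and the added 1 shrinks the change of low genes.

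**Figure D1:**
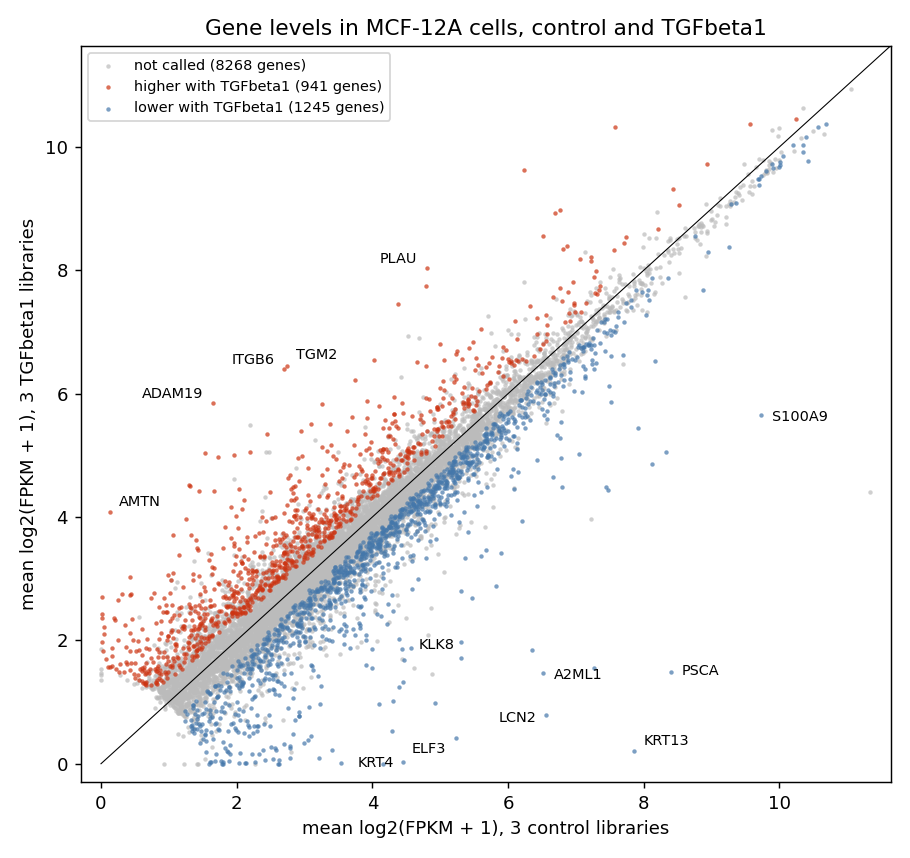
Mean log2(FPKM + 1) of 10454 genes in the 3 control libraries (x axis) and the 3 TGFbeta1 libraries (y axis), with called genes in colour and the diagonal marking equal levels. Genes far above the diagonal include ADAM19, AMTN and ITGB6, and a wider fringe far below it includes KRT13, LCN2 and A2ML1, with 24 genes lower by 3 or more against 12 higher.

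Most genes listed as storing, anchoring or activating TGFbeta were higher. All gene lists in this text were chosen with earlier results of these data known, so their counts describe the lists and test nothing. Every list count below is to be read beside the shares over all tested genes, 9% higher and 11.9% lower. Of 20 tested ligand, latency and activator genes, 14 were higher and 1 lower, against 9% and 11.9% of all genes, and the list's median log2 change was 0.91 against -0.055. ITGB6 encodes the integrin chain that, paired with the ITGAV chain, pulls latent TGFbeta open. It was at 5.4, 4.64 and 6.57 FPKM in the controls and 85.4, 83.4 and 80.8 with TGFbeta1, a log2 change of 3.7 (SE 0.119, adjusted p = 6.74e-05). The lowest treated library lay far above the highest control. Its partner ITGAV was at 15.6, 15 and 12 FPKM in the controls and 58.2, 33 and 56 with TGFbeta1 (log2 change 1.69), where TGFbeta1 2 was the lowest treated library and still above every control. TGM2, a transglutaminase that cross-links latent complexes to matrix, was at 4.57, 5.41 and 7.32 FPKM in the controls and 89.5, 88.5 and 80.7 with TGFbeta1 (log2 change 3.71). The latency proteins LTBP1 and LTBP2, which tether the complex, rose by 1.41 and 1.85, the microfibril gene FBN1 by 1.16, and MMP14, a membrane protease able to release the ligand, by 1.53.

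The ligand genes themselves split. TGFB2 fell, at 3.15, 2.85 and 2.85 FPKM in the controls and 0.282, 0.771 and 0.493 with TGFbeta1, a log2 change of -1.39, and the groups did not overlap. TGFB1 was higher, at 22.6, 23.8 and 13.3 FPKM in the controls and 42.3, 44.2 and 44.1 with TGFbeta1 (log2 change 1.14, adjusted p = 0.0197), with control 3 the lowest, but the call was lost with the replicate block and without any 1 TGFbeta1 library (adjusted p up to 0.0659). The activin subunit INHBA rose, at 0.538, 0.529 and 0.961 FPKM in the controls and 5.36, 5.59 and 5.46 with TGFbeta1 (log2 change 1.96), and the activin-binding protein FSTL1 by 1.88.

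Few receptor and SMAD genes were called. Of 14 tested, 2 were higher and none lower, a share of 14.3% against 20.9% for all genes. The type I receptor TGFBR1 was at 4.9, 5.33 and 4.57 FPKM in the controls and 11.2, 12.1 and 10.8 with TGFbeta1 (log2 change 1.06) and the BMP receptor BMPR2 rose by 0.76. SMAD3, a signal-carrying SMAD, was at 7.9, 8.95 and 9.27 FPKM in the controls and 9.44, 9.27 and 9.46 with TGFbeta1 (adjusted p = 0.439), and SMAD4 at 6.26, 6.24 and 5.43 FPKM in the controls and 6.42, 6.27 and 6.92 with TGFbeta1 (adjusted p = 0.414). TGFBR2, the type II receptor, was at 17.1, 48.3 and 32.2 FPKM in the controls and 19.3, 50.3 and 55 with TGFbeta1, with libraries of both groups spread over the same range.

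Among 20 intracellular brakes on the pathway, 7 were higher and 2 lower, with a median of 0.19. Over all tested genes 9% were higher and 11.9% lower, so the lower count was near the common share. That count was 1 without any 1 control, TGFbeta1 1 or TGFbeta1 2. PMEPA1, a membrane protein that holds SMADs away from the receptor, was at 18.4, 18.3 and 22.8 FPKM in the controls and 183, 179.6 and 162 with TGFbeta1 (log2 change 3.08, adjusted p = 7.77e-05). SKIL, a SMAD co-repressor, was at 5.8, 5.89 and 5.53 FPKM in the controls and 24.1, 23.9 and 23.1 with TGFbeta1 (log2 change 1.87) and SMAD7 at 0.999, 1.31 and 1.34 FPKM in the controls and 4.87, 3.71 and 4.47 with TGFbeta1 (log2 change 1.27). In each of the 3 genes the libraries of the groups lay well apart. The ubiquitin ligase genes SMURF1 and SMURF2 rose by 0.92 and 0.65. PPM1A, a phosphatase that removes phosphate from SMAD2 and SMAD3, went the other way and fell by 0.79. BAMBI, a decoy receptor, was at 1.26, 1.78 and 1.63 FPKM in the controls and 2.16, 1.92 and 2.28 with TGFbeta1 and did not pass the test (adjusted p = 0.135).

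Laminin chain genes, whose products form the basement membrane that anchors basal epithelial cells, were among the rises. LAMB3 was at 85.4, 94.4 and 91.3 FPKM in the controls and 371, 379 and 380.2 with TGFbeta1 (log2 change 2.05) and LAMA3 at 107, 107 and 109 FPKM in the controls and 526, 502 and 478 with TGFbeta1 (log2 change 2.21, adjusted p = 4.78e-05). Spread within groups was small in both genes. The laminin receptor subunits rose less, ITGA6 by 1.07 and ITGB4 by 0.81, and so did COL17A1, the transmembrane collagen of hemidesmosomes, by 0.999. DST, the plakin that links hemidesmosomes to keratin, fell by 0.98. Over the 16 tested hemidesmosome and laminin genes, 8 were higher and 2 lower, against 9% and 11.9% of all genes. The lower count was near the common share.

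LAMA3 is read from separate starts, and most of its level came from a short form. The transcript LAMA3-002, whose first base is at -180 from the RefSeq start used here, was at 105, 104 and 104 FPKM in the controls and 518, 488 and 467 with TGFbeta1 (log2 change 2.22, adjusted p = 0.000295). The long form LAMA3-001, which starts at -183577, was at 1.32, 1.26 and 4.21 FPKM in the controls and 0.625, 0.637 and 0.528 with TGFbeta1 and did not pass the test (adjusted p = 0.237). LAMA3-012, which starts 76873 bases downstream of the RefSeq start, was also called higher, at 0.501, 0.656 and 0.651 FPKM in the controls and 3.65, 3.05 and 2.37 with TGFbeta1 (log2 change 1.32, adjusted p = 0.0166). The call of LAMA3-002 held in each of 12 other settings, and that of LAMA3-012 was lost with the replicate block and without control 1, control 2, TGFbeta1 1 or TGFbeta1 2. LAMA3-004, at 0, 0.694 and 0 FPKM in the controls and 0, 7.91 and 6.13 with TGFbeta1, did not pass (adjusted p = 0.34). A stretch ahead of that RefSeq start, at bases 87 to 63 before it, is shown because it holds a SMAD element (CAGACA) and an AP-1 site (TGANTCA) close together. It lies on the plus strand of GRCh38.p14 at chr18:23872933-23872957, downstream of the first base of LAMA3-002 in GENCODE 29. Unlike the other stretches shown, it was not cut at annotated exons. Outside the stretch, another AP-1 site begins 125 bases before that RefSeq start. Capitals mark the motifs.
LAMA3: CAGACAgccttcctcaccTGAGTCA

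Cell-cell junction genes mostly fell or did not pass the test. Of 14 tested desmosome genes, 6 were lower and none higher. The plakin PPL was at 25.8, 21.2 and 21.4 FPKM in the controls and 2.75, 2.57 and 2.73 with TGFbeta1 (log2 change -2.69), EVPL, its partner in the cornified envelope, fell by 1.59, the desmosomal cadherin DSG3 by 0.92 and desmoplakin (DSP) by 0.69. The other 2 lower genes, PKP3 and PERP, had log2 changes of -0.51 and -0.32 and calls that did not hold throughout. That of PKP3 was lost without control 1, TGFbeta1 1 or TGFbeta1 2, and that of PERP was lost under all 3 other scalings, with the replicate block and without control 1, control 2 or any 1 TGFbeta1 library. Of 21 tight junction genes 9 were lower and 1 higher, a count of lower genes that was 5 without control 1, while the 1 higher gene, CLDN12, was not called without control 1, TGFbeta1 1 or TGFbeta1 3. TJP3, a scaffold protein, was at 5.36, 5.33 and 7.08 FPKM in the controls and 0.123, 0.052 and 0.0188 with TGFbeta1 (log2 change -2.69). The barrier genes CLDN7 and OCLN fell by 1.48 and 1.36, the scaffold CGN by 1.1 and the polarity gene LLGL2 by 1.17. CLDN1 was at 78.8, 82.5 and 60.1 FPKM in the controls and 22.7, 23.3 and 5.1 with TGFbeta1 (adjusted p = 0.0414), a call lost under quantile scaling and without any 1 control, TGFbeta1 1 or TGFbeta1 2. The cadherins did not follow the same path. E-cadherin (CDH1) was at 47.1, 39 and 42 FPKM in the controls and 31.2, 19.2 and 31.2 with TGFbeta1 and did not pass (adjusted p = 0.0771), while P-cadherin (CDH3), the basal epithelial cadherin, rose, at 76, 74.4 and 87.4 FPKM in the controls and 174, 175 and 160.1 with TGFbeta1 (log2 change 1.09), and N-cadherin (CDH2) rose at a low level, at 0.436, 0.687 and 0.625 FPKM in the controls and 2.08, 2.13 and 2.13 with TGFbeta1.

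Collagen chains had the highest share of calls among the gene lists. Of 12 tested chains 11 were higher and none lower, with a median of 1.12. COL5A1, a regulator of fibril size, was at 1.62, 1.73 and 2.36 FPKM in the controls and 32.2, 31.5 and 31.6 with TGFbeta1 (log2 change 3.5). COL4A1 and COL4A2 encode the main chains of basement membrane collagen and lie head to head on chromosome 13, with RefSeq starts 127 bases apart on GRCh38.p14. COL4A1 was at 2.47, 2.59 and 3.69 FPKM in the controls and 30.8, 31 and 31.1 with TGFbeta1 (log2 change 3.04) and COL4A2 at 8.57, 8.2 and 9 FPKM in the controls and 56.5, 55.5 and 56.8 with TGFbeta1 (log2 change 2.58). In both genes the libraries of the groups lay far apart. COL7A1, the anchoring fibril collagen, rose by 2.41, and COL1A1, the main interstitial chain, by 2.65. With no filter on low values, 17 chains were called higher.

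Genes that modify collagen rose in 12 of 21 cases and fell in 1. P4HA2 and P4HA3, subunits of prolyl hydroxylases, rose by 1.07 and 1.71, the latter at 0.1, 0.124 and 0.122 FPKM in the controls and 2.83, 3.09 and 2.12 with TGFbeta1. The cross-linking enzyme LOXL2 rose by 1.63 and the collagen chaperone SERPINH1 by 0.48. The exception, with 1 more lower gene without control 1, was CRTAP, a partner of prolyl 3-hydroxylase, at 28.1, 28.6 and 27.2 FPKM in the controls and 11.2, 11.3 and 11.2 with TGFbeta1 (log2 change -1.24), with libraries within a group nearly equal.

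Of 18 matrix glycoprotein genes, 12 were higher and 1 lower (median 1.09). FN1, fibronectin, was at 24.8, 25.7 and 29.4 FPKM in the controls and 202, 228 and 213 with TGFbeta1 (log2 change 2.96). TNC, tenascin-C, was at 4.61, 4.45 and 4.29 FPKM in the controls and 37, 38.2 and 44.4 with TGFbeta1 (log2 change 2.9), and TGFBI, an integrin-binding matrix protein, rose by 2.23. MFAP2, a microfibril protein, was at 0, 0.0503 and 0.0493 FPKM in the controls and 2.13, 5.29 and 3.04 with TGFbeta1 (log2 change 2.06). The 1 lower gene was ECM1, a matrix protein of skin, which fell by 2.03. Proteoglycan and hyaluronan genes had 14 of 31 higher and 2 lower, the latter 1 or none with any 1 library left out. VCAN, versican, was at 14.4, 13.6 and 14.6 FPKM in the controls and 58, 58.6 and 58.2 with TGFbeta1 (log2 change 1.97), SPOCK1 rose by 2.24, and XYLT1, which starts glycosaminoglycan chains, by 1.31.

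AMTN, a secreted protein best known from the enamel organ, was among the largest rises, at 0.114, 0.173 and 0 FPKM in the controls and 16.4, 19.1 and 12.9 with TGFbeta1 (log2 change 3.95, adjusted p = 0.000112). In the controls it was at or near 0, and all treated libraries lay far above. The bases ahead of its start are shown because they hold 3 copies of the SMAD element, written CAGACA or, on the other strand, TGTCTG, while 9.34% of the 8602 tested genes with a promoter in the RefSeq table hold 1 or more in the 250 bases before the start. The copies begin 225, 144 and 81 bases before the RefSeq start. The window lies on the plus strand of GRCh38.p14 at chr4:70518319-70518539, and bases inside annotated exons were left out. Capitals mark the element.
AMTN: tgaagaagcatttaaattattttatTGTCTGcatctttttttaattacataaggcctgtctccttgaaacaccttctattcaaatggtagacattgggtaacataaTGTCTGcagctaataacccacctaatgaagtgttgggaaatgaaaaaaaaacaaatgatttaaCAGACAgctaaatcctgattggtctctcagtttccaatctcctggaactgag

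**Figure D2:**
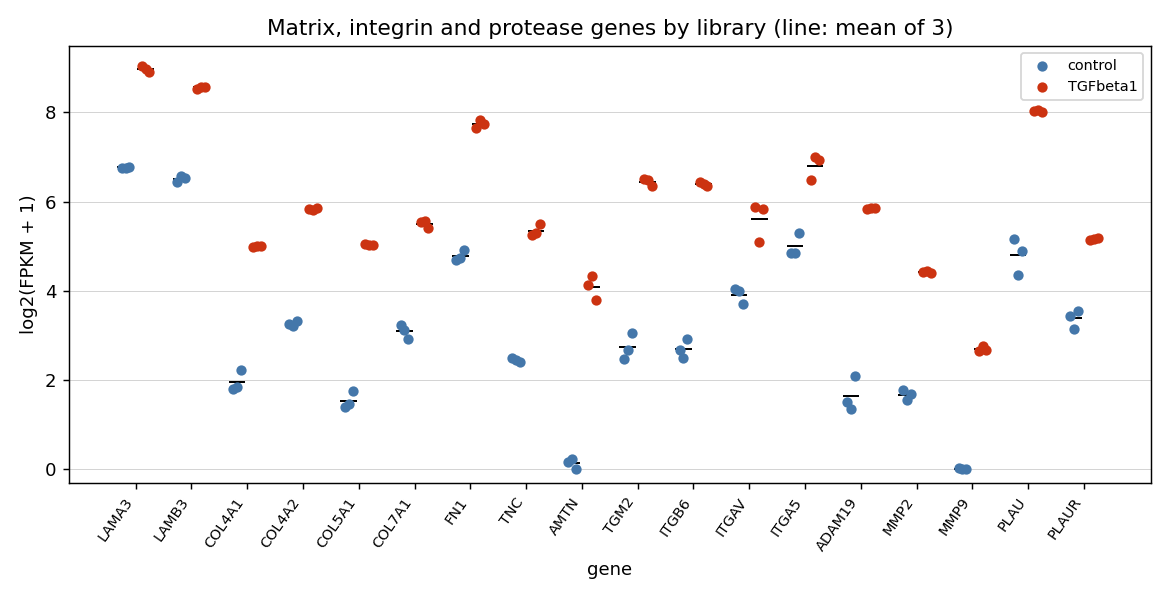
Levels of 18 matrix, integrin and protease genes in each library, as log2(FPKM + 1) on the y axis, with controls in blue, TGFbeta1 in red and a line at each mean of 3. In all 18 genes, picked for the plot from genes called higher, the TGFbeta1 libraries lie above the controls. The same was true of 18.2% of all tested genes. ITGAV has 1 treated library below the other 2.

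Integrin genes rose in 11 of 13 tested cases and none fell, with a median of 0.81. ITGA5, the fibronectin receptor chain, was at 27.8, 27.8 and 38.4 FPKM in the controls and 87.9, 128 and 122 with TGFbeta1 (log2 change 1.81), and ITGA2, a collagen receptor chain, rose by 1.22. ITGB1, the common partner, was at 106, 108 and 108 FPKM in the controls and 211, 208 and 205 with TGFbeta1 (log2 change 0.95). The 11 include ITGA1 and ITGA3, with log2 changes of 0.41 and 0.35, whose calls did not hold throughout. That of ITGA1 was lost with the replicate block and without any 1 library, and that of ITGA3 was lost with the replicate block and without control 1 or TGFbeta1 2.

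Matrix-degrading enzymes rose alongside. Among 19 metalloproteases and inhibitors 10 were higher and 1, ADAM15, lower (log2 change -0.71), with 2 lower without control 3. ADAM19, a sheddase, was at 1.83, 1.54 and 3.28 FPKM in the controls and 56.3, 57 and 56.6 with TGFbeta1 (log2 change 4.2, adjusted p = 0.000197). Its rise was the largest of all tested genes on log2(FPKM + 1), a rank tied to that scale. The added 1 shrinks changes more in genes near 0 in the controls, such as AMTN. The gelatinase MMP2 was at 2.43, 1.92 and 2.2 FPKM in the controls and 20.5, 20.9 and 20 with TGFbeta1 (log2 change 2.76) and MMP9 at 0.0254, 0 and 0 FPKM in the controls and 5.33, 5.83 and 5.37 with TGFbeta1 (log2 change 2.69). The controls of MMP9 were at or near 0. ADAMTS6 was at 0.313, 0.107 and 0.0603 FPKM in the controls and 4.05, 3.71 and 4.26 with TGFbeta1 (log2 change 2.11).

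Of 21 plasminogen system and coagulation genes, 11 were higher and 1 lower (2 lower without control 1). PLAU, the urokinase that cuts plasminogen, was at 34.6, 19.4 and 28.7 FPKM in the controls and 261, 264 and 258 with TGFbeta1 (log2 change 3.23), and its receptor PLAUR at 9.89, 7.86 and 10.8 FPKM in the controls and 34.5, 34.6 and 35.5 with TGFbeta1 (log2 change 1.78). In both genes the lowest treated library lay far above the highest control. SERPINE2 and SERPINA1, protease inhibitors, rose by 1.39 and 2.03. SERPINB2, another protease inhibitor, was the lower gene, at 5.07, 7.32 and 6.19 FPKM in the controls and 1.13, 0.741 and 1.45 with TGFbeta1 (log2 change -1.77).

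Of 50 actin, myosin and focal adhesion genes, 22 were higher and 2 lower, against 9% and 11.9% of all genes, with a median of 0.43. The count of higher genes was 13 without control 1 and 14 without control 2, and that of lower genes 1 without control 1 or any 1 TGFbeta1 library. TAGLN, an actin-binding protein of smooth muscle, was at 1.26, 1.64 and 2.24 FPKM in the controls and 12.5, 8.61 and 9.24 with TGFbeta1 (log2 change 2.03), and TGFB1I1, a focal adhesion adaptor, at 0.65, 0.934 and 1.89 FPKM in the controls and 7.09, 8.44 and 7.08 with TGFbeta1 (log2 change 2.02). NEDD9, a docking protein of migrating cells, was at 0, 0 and 0.0319 FPKM in the controls and 4.26, 4.5 and 4.35 with TGFbeta1 (log2 change 2.41). Smoothelin (SMTN) rose by 1.74 and tropomyosin 1 (TPM1) by 1.19. LMO7, a junction protein, fell by 1.9.

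Squamous differentiation genes were among the deepest falls. Of 17 tested cornified envelope genes, 13 were lower and 1 higher, with a median of -1.72. The protease inhibitor A2ML1 was at 93.3, 91.7 and 85.7 FPKM in the controls and 1.69, 1.76 and 1.83 with TGFbeta1 (log2 change -5.05, adjusted p = 6.05e-06). SPRR1B, a cross-linked envelope protein, was at 170.3, 172 and 191 FPKM in the controls and 19.7, 22.3 and 20.3 with TGFbeta1 (log2 change -3.04), SBSN, a secreted protein of the upper epidermis, fell by 3.12, SCEL, an envelope precursor, by 2.78, and TGM1, the transglutaminase that builds the envelope, by 2.36. CRNN, cornulin, was at 2.04, 1.81 and 3.75 FPKM in the controls and 0, 0 and 0 with TGFbeta1. The single member that rose was LCE3D, a late envelope gene, at 0.281, 0.479 and 0.394 FPKM in the controls and 2.87, 3.73 and 2.5 with TGFbeta1.

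Keratins changed by type. Of 17 tested, 8 were lower and 2 higher, against 11.9% and 9% of all genes. The higher count was 1 without control 1, control 2 or any 1 TGFbeta1 library. KRT13 and KRT4, the pair of non-cornified stratified epithelia, fell to near 0. KRT13 was at 208, 203 and 292 FPKM in the controls and 0.0816, 0 and 0.425 with TGFbeta1 (log2 change -7.65, adjusted p = 4.78e-05) and KRT4 at 19.1, 19.6 and 24.1 FPKM in the controls and 0.0266, 0.0338 and 0.00209 with TGFbeta1 (log2 change -4.42). KRT15 was at 63.4, 95.5 and 86.4 FPKM in the controls and 2.91, 2.59 and 2.33 with TGFbeta1 (log2 change -4.5) and the stress keratin KRT16 at 291, 335 and 338 FPKM in the controls and 29.4, 40.2 and 28.1 with TGFbeta1 (log2 change -3.28). Of the basal keratins, KRT5 was at 1329.8, 1303 and 1462 FPKM in the controls and 866, 842 and 912 with TGFbeta1 (log2 change -0.64). KRT14 was at 819, 477 and 866 FPKM in the controls and 564, 570.4 and 561 with TGFbeta1 and did not pass (log2 change -0.3, adjusted p = 0.413, and 0.00606 to 0.712 over the other settings). Its groups overlapped through control 2 alone, and without that library it was called lower (adjusted p = 0.00606). KRT17 was at 650.4, 278 and 325 FPKM in the controls and 185, 194 and 188 with TGFbeta1, groups that did not overlap, and did not pass (log2 change -1.04, adjusted p = 0.0742). KRT6A and KRT7 had log2 changes of 0.22 and -0.22, but neither call held throughout. That of KRT6A was lost with no filter on low values, without a mean trend in limma, with the replicate block and without control 1, control 2 or any 1 TGFbeta1 library, and that of KRT7 was lost under all 3 other scalings, with no filter on low values, without a mean trend in limma, with the replicate block and without any 1 library. Keratins share sequence, so reads can move between them.

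Lower genes lay next to each other on chromosome 1. Between 152974223 and 153522612 on hg19, 9 neighbouring tested genes were all lower: SPRR3, SPRR1B, SPRR2D, SPRR2A, S100A9, S100A8, S100A7, S100A6 and S100A4. Changes within the run were far from equal. S100A9, which with S100A8 forms calprotectin, was at 806, 809 and 942 FPKM in the controls and 53.5, 50.2 and 44.4 with TGFbeta1 (log2 change -4.08), and S100A8 at 113, 102 and 115 FPKM in the controls and 18.9, 22.9 and 22.7 with TGFbeta1 (log2 change -2.31). S100A6 was at 966, 923 and 955 FPKM in the controls and 851, 838 and 845 with TGFbeta1 (log2 change -0.17), a call lost under all 3 other scalings, with no filter on low values, without a mean trend in limma, with the replicate block and without any 1 library. The call of S100A7 was lost with the replicate block and without control 2, TGFbeta1 2 or TGFbeta1 3. Outside the cluster, S100P was at 259, 118 and 119 FPKM in the controls and 2.98, 5.23 and 0 with TGFbeta1 (log2 change -5.73). Over all 13 tested S100 genes, 6 were lower and none higher.

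A second run lay on chromosome 19 and held the kallikreins, secreted serine proteases that cut desmosomal proteins at the skin surface. Between 51446559 and 51587502 on hg19, 9 kallikrein genes were listed, 6 passed the filter, and all 6 were lower. KLK5 was at 37.4, 37.3 and 41.6 FPKM in the controls and 2.47, 3.01 and 3.41 with TGFbeta1 (log2 change -3.33), KLK8 at 41.5, 31.6 and 44.3 FPKM in the controls and 2.08, 2.33 and 2.46 with TGFbeta1 (log2 change -3.6) and KLK10 at 17.6, 17.5 and 21.1 FPKM in the controls and 0.856, 1.19 and 1.05 with TGFbeta1 (log2 change -3.28). KLK7 was at 8.16, 7.79 and 8.83 FPKM in the controls and 0, 0.225 and 0 with TGFbeta1, and KLK6 and KLK11 fell by 3.19 and 2.35. The 9 genes together took 0.0389% ± 0.0035 of the summed FPKM in controls and 0.0024% ± 0.00028 with TGFbeta1 (SD, n = 3). The next tested genes along the chromosome, CTU1 and VSIG10L, were lower too, with log2 changes of -0.49 and -1.58, and the call of CTU1 was lost with the replicate block. Over all 16 tested kallikrein and membrane serine protease genes 13 were lower and 1 higher. TMPRSS4 was at 4.49, 4.42 and 6.85 FPKM in the controls and 0.093, 0 and 0.0529 with TGFbeta1, ST14 (matriptase) fell by 1.21, and SPINK5, the inhibitor of skin kallikreins, fell with them by 1.58.

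The bases ahead of the start of KLK6 are shown as a counterpart to AMTN, because this gene fell and its promoter holds the same SMAD element, beginning 187 bases before the RefSeq start. The window is on the minus strand of GRCh38.p14 at chr19:50969674-50969841, with bases inside annotated exons left out, and capitals mark the element.
KLK6: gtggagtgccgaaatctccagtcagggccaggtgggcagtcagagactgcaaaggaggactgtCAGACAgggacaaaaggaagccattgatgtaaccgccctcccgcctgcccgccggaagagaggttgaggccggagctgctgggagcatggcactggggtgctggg

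Secreted defence proteins and surface glycoproteins were mostly lower or did not pass the test. Of 10 tested defence genes 7 were lower and none higher (median -1.41). LCN2, an iron-sequestering lipocalin, was at 95.4, 92.3 and 91.9 FPKM in the controls and 0.769, 0.645 and 0.765 with TGFbeta1 (log2 change -5.77, adjusted p = 5.47e-06). SLPI, an antiprotease, was at 235, 391 and 255 FPKM in the controls and 94.1, 96.5 and 83.4 with TGFbeta1 (log2 change -1.64), and PI3 (elafin) and DEFB1 (a defensin) fell by 2.23 and 3.12. Of 17 surface glycoprotein genes 11 were lower and none higher (median -1.03), and 18 were lower with no filter on low values. PSCA, a membrane-anchored antigen, was at 105, 550.5 and 649.9 FPKM in the controls and 2.78, 0.437 and 3.1 with TGFbeta1 (log2 change -6.9, SE 0.812). Control 1 was far under the other controls, and all 3 were above every treated library. CEACAM6, an adhesion molecule, was at 16.7, 18.3 and 20.9 FPKM in the controls and 0.442, 0.486 and 0.41 with TGFbeta1 (log2 change -3.76), and the mucins MUC1 and MUC16 fell by 1.36 and 1.73. PROM2, a protein of membrane protrusions, fell by 3.14 and EPCAM by 1.03. MAL2, a transport protein of polarised cells, was at 288, 293 and 253 FPKM in the controls and 94.6, 15 and 14.8 with TGFbeta1 (log2 change -3.27). TGFbeta1 1 was far above the other treated libraries, and the call was lost with the replicate block and without any 1 control, TGFbeta1 2 or TGFbeta1 3.

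**Figure D3:**
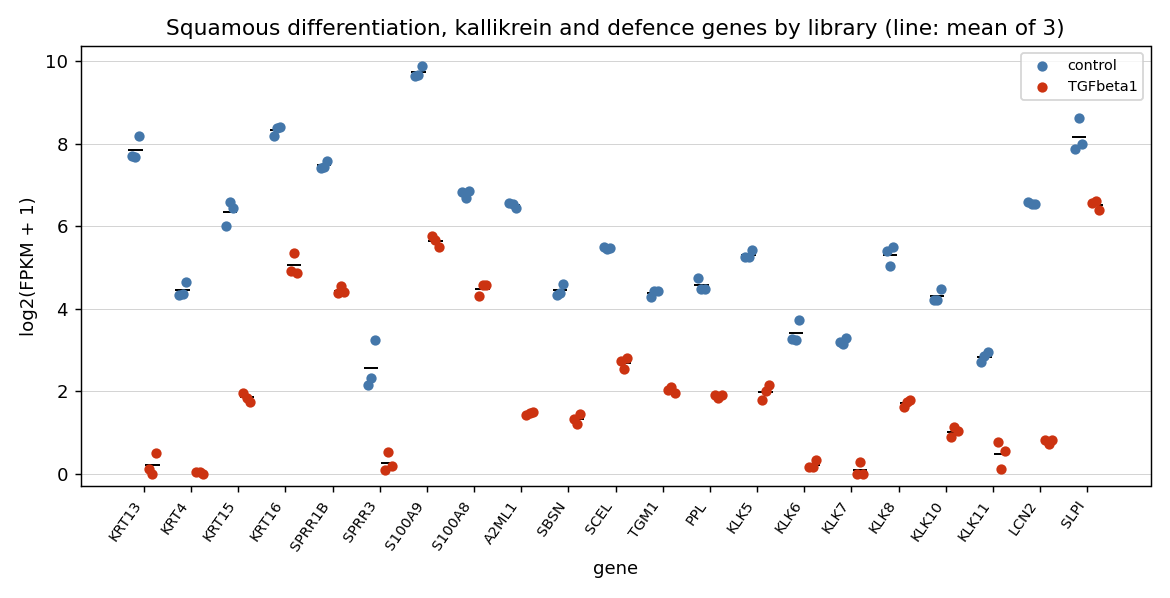
Levels of 21 squamous differentiation, kallikrein and defence genes in each library, as log2(FPKM + 1) on the y axis, with controls in blue, TGFbeta1 in red and a line at each mean of 3. No TGFbeta1 library reaches the lowest control in any of the 21 genes, which were picked for the plot from genes called lower. The same was true of 25.1% of all tested genes. KRT13 and KRT4 sit at or near 0 after treatment.

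Transcription factors of epithelial differentiation fell in 12 of 23 tested cases and rose in 2, against 11.9% lower and 9% higher over all genes. ELF3, an epithelial ETS factor, was at 33.7, 32.6 and 44 FPKM in the controls and 0.0913, 0.561 and 0.385 with TGFbeta1 (log2 change -4.81), and the related EHF fell by 2.23. HOPX, a small homeodomain protein of differentiating cells, was at 3.22, 3.4 and 3.55 FPKM in the controls and 0.0311, 0 and 0 with TGFbeta1 (log2 change -2.12). ZNF750 and GRHL3, regulators of epidermal differentiation, fell by 1.52 and 1.46. The epithelial splicing factor ESRP2 fell by 1.02, and ESRP1 was at 61.1, 62.4 and 52.9 FPKM in the controls and 39, 43.5 and 39.1 with TGFbeta1, a call lost without control 1 or TGFbeta1 1. PRDM1, a repressor, was among those that rose, by 0.64. The basal identity factor TP63 was at 23.3, 23.6 and 20 FPKM in the controls and 24.4, 24.9 and 33.1 with TGFbeta1 and did not pass the test (adjusted p = 0.227).

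Among 15 EMT transcription factors, 5 were higher and none lower, against 9% and 11.9% of all genes. The higher count was 2 or 3 without any 1 library other than control 1 or TGFbeta1 2. TBX3, a T-box repressor, was at 1.14, 1.36 and 1.38 FPKM in the controls and 3.45, 3.77 and 3.65 with TGFbeta1 (log2 change 1.01), and ETS1 was at 4.22, 2.97 and 4.52 FPKM in the controls and 7.38, 7.36 and 8.48 with TGFbeta1 (log2 change 0.85). The classical factors were less firm. SNAI2 was at 20.9, 49.9 and 48 FPKM in the controls and 112, 98.4 and 97.2 with TGFbeta1, with control 1 below the other controls, SNAI1 at 0.138, 0.403 and 0.343 FPKM in the controls and 3.2, 0.917 and 2.77 with TGFbeta1 and ZEB1 at 0.897, 0.521 and 1.03 FPKM in the controls and 1.62, 1.49 and 1.73 with TGFbeta1. The call of SNAI2 was lost with the replicate block and without control 3 or any 1 TGFbeta1 library, that of SNAI1 lost with the replicate block and without any 1 control or TGFbeta1 3, and that of ZEB1 lost with a pseudocount of 0.1, under quantile scaling, with the replicate block and without control 1, control 2 or any 1 TGFbeta1 library. TWIST1 was at 0.661, 0.281 and 0.279 FPKM in the controls and 4.53, 0.365 and 0.97 with TGFbeta1, where a single treated library was high, and did not pass (adjusted p = 0.327).

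Of 20 Notch genes 5 were lower and none higher, 25% called against 20.9% of all genes, and the list's median of -0.04 turned positive under all 3 other scalings, which called 2 or 3 genes higher. NOTCH3, a receptor, was at 8.11, 8.56 and 8.83 FPKM in the controls and 1.37, 1.49 and 1.35 with TGFbeta1 (log2 change -1.98). The target genes HES7 and HES4 fell by 1.64 and 1.28, and the ligand JAG2 by 0.68. NOTCH1 was at 46.7, 49.3 and 36.2 FPKM in the controls and 21.5, 32.2 and 22.2 with TGFbeta1, where TGFbeta1 2 came near the controls, and its call was lost under all 3 other scalings and without control 1, control 2, TGFbeta1 1 or TGFbeta1 3. ID1 and ID3, inhibitors of differentiation factors and targets of BMP signalling, fell by 0.84 and 0.5.

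Several inflammatory genes rose, and a natural antagonist fell. IL1B, a central inflammatory cytokine, was at 12.5, 12.4 and 12.4 FPKM in the controls and 71.9, 71.7 and 76.2 with TGFbeta1 (log2 change 2.47, adjusted p = 4.78e-05), with libraries of a group nearly equal. IL1RN, the antagonist that blocks its receptor, was at 14, 14.4 and 16.5 FPKM in the controls and 2.92, 2.75 and 2.29 with TGFbeta1 (log2 change -2.13), and the receptor IL1R1 rose by 0.61. Of 24 NF-kappaB regulators 8 were higher and 1 lower, against 9% and 11.9% of all genes. The lower gene was BIRC3, whose call was lost with the replicate block and without any 1 library. TNFAIP3, a feedback inhibitor of the pathway, was at 2.46, 2.39 and 2.63 FPKM in the controls and 9.69, 9.96 and 11.3 with TGFbeta1 (log2 change 1.7), and the inhibitor NFKBIA and the adhesion gene ICAM1 rose by 0.83 and 1.3. Of 6 tested chemokine genes 4 were higher and none lower, a count of 2 without TGFbeta1 2. CXCL3 and CCL20 rose by 1.77 and 1.17. The cytokine IL11 was at 1.02, 0.853 and 0.674 FPKM in the controls and 2.8, 3.78 and 3.47 with TGFbeta1 (log2 change 1.23) and SOCS3, a feedback inhibitor of cytokine receptors, at 0.514, 0.443 and 0.433 FPKM in the controls and 3.14, 2.51 and 3.29 with TGFbeta1 (log2 change 1.44). IL32 was at 1.32, 1.11 and 2 FPKM in the controls and 20.4, 24.7 and 20.7 with TGFbeta1 (log2 change 3.22). TNFRSF6B, a decoy for death ligands, was at 1.53, 3.09 and 2.5 FPKM in the controls and 32.4, 50.6 and 17.1 with TGFbeta1 (log2 change 3.25), and the death ligand TNFSF10 rose by 1.22.

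CXCL8, the neutrophil chemokine, was at 1.33, 1.37 and 2.67 FPKM in the controls and 8.66, 27.9 and 34.1 with TGFbeta1 (log2 change 2.97, adjusted p = 0.0142). TGFbeta1 1 was the lowest treated library and lay above all controls, and the call was lost without control 1, control 2 or TGFbeta1 2. The bases ahead of its start are shown for a single AP-1 site (TGANTCA), beginning 137 bases before the RefSeq start. The window is on the plus strand of GRCh38.p14 at chr4:73740319-73740505, outside annotated exons, and capitals mark the site.
CXCL8: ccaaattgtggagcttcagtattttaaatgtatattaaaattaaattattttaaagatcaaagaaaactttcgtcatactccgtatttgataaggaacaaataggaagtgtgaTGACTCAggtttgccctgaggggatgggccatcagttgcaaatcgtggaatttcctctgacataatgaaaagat

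Growth factors and guidance genes went both ways. PTHLH, parathyroid hormone-like hormone, was at 2.58, 2.05 and 5.29 FPKM in the controls and 18.4, 19.6 and 25.1 with TGFbeta1 (log2 change 2.42). ANGPTL4 was at 13.3, 12.4 and 21.5 FPKM in the controls and 90.5, 88.4 and 97.8 with TGFbeta1 (log2 change 2.52), and FGFBP1, which releases fibroblast growth factors from matrix, at 58.6, 51.6 and 66.7 FPKM in the controls and 9.07, 9.66 and 10.2 with TGFbeta1 (log2 change -2.49). The EGF receptor ligand TGFA rose by 1.44 and the receptor ERBB3 fell by 1.28. The ligand genes WNT5B and WNT9A rose by 1.43 and 1.29 and the Wnt modulator DKK3 by 1.38. Of 37 ephrin, semaphorin and guidance genes 11 were higher and 6 lower, against 9% and 11.9% of all genes. The lower share was not far above that of all genes. SEMA7A, an integrin-binding semaphorin, was at 1.12, 1.31 and 1.71 FPKM in the controls and 11.1, 23.1 and 12.2 with TGFbeta1 (log2 change 2.72), with TGFbeta1 2 the highest, and the receptor EPHB2 rose, at 0.789, 1.03 and 1.25 FPKM in the controls and 5.92, 5.88 and 5.73 with TGFbeta1.

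Of 44 ion channel genes 12 were higher and 7 lower (median 0.16), with 7 higher without TGFbeta1 1. Of 172 solute carriers, which move small molecules across membranes, 16 were higher and 31 lower, with a median of -0.03 that turned positive under all 3 other scalings. Their share of calls, 27.3%, was not far from the 20.9% of all genes (9% higher and 11.9% lower). The higher count of solute carriers was 10 without control 1, 9 without control 2 and 7 without any 1 TGFbeta1 library, and the lower count was 16, 20, 20 and 18 without control 1, control 2, TGFbeta1 1 and TGFbeta1 2. The epithelial sodium channel subunits SCNN1B and SCNN1G were at 3.26, 2.91 and 3.89 FPKM in the controls and 0, 0.0136 and 0 with TGFbeta1 and at 4.43, 3.93 and 4.33 FPKM in the controls and 0.271, 0.128 and 0.108 with TGFbeta1, and AQP3, a water and glycerol channel, was at 65.1, 61.5 and 42.6 FPKM in the controls and 6.51, 6.11 and 6.53 with TGFbeta1 (log2 change -2.94). FXYD3, a sodium pump modulator, fell by 1.66, and the pump subunit ATP1B1 rose by 1.44. SLC6A14, an amino acid transporter, was at 10.1, 9.84 and 11.8 FPKM in the controls and 0, 0.0128 and 0.00597 with TGFbeta1 (log2 change -3.52). Among 23 retinoid, steroid and cytochrome genes 8 were lower and 5 higher, the latter 1 to 3 without any 1 library other than control 3. CRABP2, a retinoic acid carrier, was at 42.1, 39 and 43.7 FPKM in the controls and 10.9, 13.5 and 13.3 with TGFbeta1 (log2 change -1.65), DHRS9, a retinol dehydrogenase, fell by 2.17, and AHR, the aryl hydrocarbon receptor, by 1.68. HSD11B2, which inactivates cortisol, fell by 2.66, and HSD17B2, which inactivates oestradiol, was at 2.01, 2.03 and 2.24 FPKM in the controls and 9.72, 10.2 and 8.83 with TGFbeta1 (log2 change 1.77). Redox genes split within a list of 29, with 6 higher and 7 lower. AKR1C2 and AKR1C3 rose by 1.26 and 1.16, which share sequence, and AKR1B10, ALDH3A1 and GPX2 fell by 1.52, 1.59 and 1.45. The higher count was 3 without control 2 or TGFbeta1 1.

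Amino acid and one-carbon synthesis genes were lower in 10 of 30 cases and higher in 2 (median -0.50), against 11.9% and 9% of all genes. The lower count was 6 without control 1, TGFbeta1 2 or TGFbeta1 3. DDIT3, a stress-response factor, was at 11.5, 11.6 and 9.88 FPKM in the controls and 2.95, 3.46 and 3.29 with TGFbeta1 (log2 change -1.5), and MTHFD1, a folate enzyme, fell by 0.55. SLC7A5, a leucine transporter, was at 103, 443 and 303 FPKM in the controls and 49.4, 45.8 and 34.3 with TGFbeta1, with control 1 well under the other controls, and its call was lost with the replicate block and without control 2, control 3 or any 1 TGFbeta1 library. MT2A, a metal-binding protein, was at 727, 697 and 855 FPKM in the controls and 1318, 1328 and 1335 with TGFbeta1 (log2 change 0.81).

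Several groups had a share of calls near or under that of the table as a whole. Of 18 MAP kinase phosphatase and Sprouty genes, 1 was lower and none higher (5.56% against 20.9%). Interferon-stimulated genes had 2 higher and 2 lower of 24 (16.7%), tubulins and kinesins 5 and 3 of 49 (16.3%), and a list of 103 genes from other transcription factor families 9 and 10 (18.4%). YAP and TEAD targets had 4 higher and 3 lower of 31 (22.6%), where CTGF, a matrix-associated growth regulator, was at 4.82, 5.34 and 8.84 FPKM in the controls and 21.5, 22.4 and 20.5 with TGFbeta1 (log2 change 1.65). Counts in these lists moved by more than 1.5 times with single libraries, for example from 4 higher YAP and TEAD targets to 2 without control 1, control 2, TGFbeta1 1 or TGFbeta1 2. The lists are small beside the table, and no list was tested against it.

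**Figure D4:**
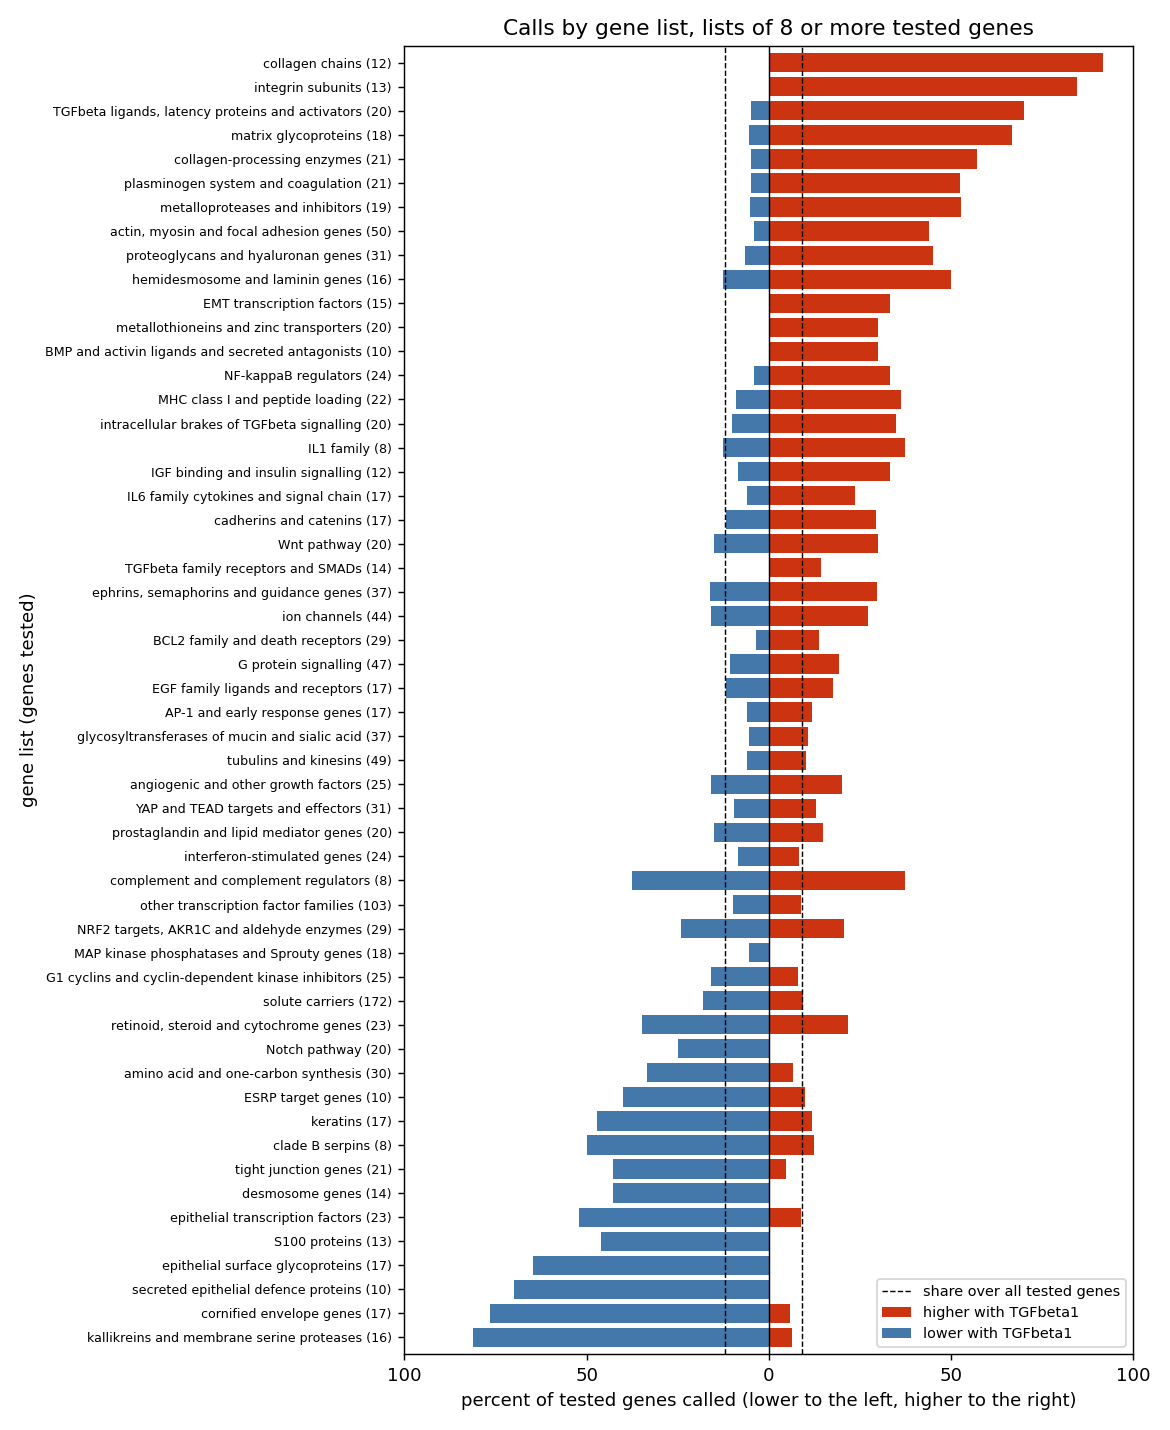
Percent of tested genes called higher (red, to the right) and lower (blue, to the left) with TGFbeta1 in gene lists with 8 or more tested genes, with dashed lines at the shares over all tested genes (9% and 11.9%). Collagen chains (11 of 12 higher) and integrin subunits (11 of 13) top the plot, and kallikreins and membrane serine proteases (13 of 16 lower) and cornified envelope genes (13 of 17) end it. The lists were chosen with earlier results of these data known.

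Transcripts were tested one by one as well, and 1003 of 18113 (5.54%) were called, 490 higher (2.71%) and 513 lower (2.83%). The count was 486 without control 1, 506 without control 2, and 406, 456 and 505 without TGFbeta1 1, 2 and 3. With the replicate block it was 45, and 45 of the 1003 calls held in every setting that tested them. In 9 genes some transcripts were called higher and others lower. They were DIAPH1, DMKN, EIF4A1, HUWE1, LIMA1, SPEG, TFPI, VEGFA and ZDHHC16, singled out after their values were seen. DIAPH1, a formin that builds actin filaments, did not pass the test as a sum (adjusted p = 0.41), while single transcripts differed in opposite directions. DIAPH1-001 was at 43.6, 64.6 and 52.7 FPKM in the controls and 13.6, 8.96 and 9.73 with TGFbeta1 (log2 change -2.22) and DIAPH1-012 at 9.19, 5.55 and 8.92 FPKM in the controls and 43.3, 53.8 and 41 with TGFbeta1 (log2 change 2.42). Their coding lengths in GENCODE 29 are 3816 and 3789 bases. LIMA1, an actin cross-linker, showed LIMA1-003, the long form, at 3.26, 1.68 and 4.57 FPKM in the controls and 0.308, 0.0903 and 0.118 with TGFbeta1 and LIMA1-006, the short form, at 23.8, 23.9 and 22.6 FPKM in the controls and 48.9, 51.3 and 52.3 with TGFbeta1. TFPI, an inhibitor of the clotting start, showed TFPI-201 at 8.44, 8.08 and 6.21 FPKM in the controls and 0.949, 0.67 and 0.713 with TGFbeta1 and TFPI-002 at 10.8, 10.5 and 8.3 FPKM in the controls and 22.5, 21.8 and 23.4 with TGFbeta1. HUWE1, a ubiquitin ligase, showed HUWE1-201 at 0.035, 0.0485 and 0.0553 FPKM in the controls and 9.08, 5.31 and 8.4 with TGFbeta1, while HUWE1-001, with the same coding length, was at 18.6, 18.2 and 20.2 FPKM in the controls and 9.24, 12.4 and 10.7 with TGFbeta1. None of these 8 calls held with the replicate block, and those of DIAPH1-001, DIAPH1-012, LIMA1-006, TFPI-201 and HUWE1-201 held in each other setting that tested them. TFPI-002 was also lost without TGFbeta1 1. LIMA1-003 was also lost with no filter on low values and without any 1 library other than control 2, and HUWE1-001 with no filter on low values and without any 1 library.

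Assignment of reads between near-identical transcripts limits such values. FN1 rose evenly as a sum, yet FN1-013 was at 6.74, 17.6 and 6.77 FPKM in the controls and 18.3, 164 and 54.5 with TGFbeta1 and FN1-009 at 11.2, 0.271 and 10.7 FPKM in the controls and 21.2, 3.18 and 71.3 with TGFbeta1, so libraries of the same group disagreed on which transcript carried the level. Of 10 tested FN1 transcripts 1, FN1-012, was called, a call that held in 3 of 12 other settings. As shares of their gene's FPKM, 4 of 19051 transcripts (0.021%) passed an adjusted p under 0.05 with a shift of at least 10 percentage points, 1 higher (0.00525%) and 3 lower (0.0157%). LARP6-003 went from 30.4% ± 3.83 to 96.3% ± 0.641 and LARP6-004 from 66.2% ± 4.16 to 0, where LARP6 binds collagen messages. SPEG-201 went from 58.6% ± 4.23 to 0 (SD, n = 3). No share was called without any 1 control, TGFbeta1 1 or TGFbeta1 2, and 6 were without TGFbeta1 3. In the limma fit 1199 shares had an unadjusted p under 0.05. None of the tested transcript shares passed in 10 genes known as ESRP splicing targets, among them CD44 and CTNND1. Since 0.021% of all shares passed, this cannot decide whether the isoforms of those genes changed.

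**Figure D5:**
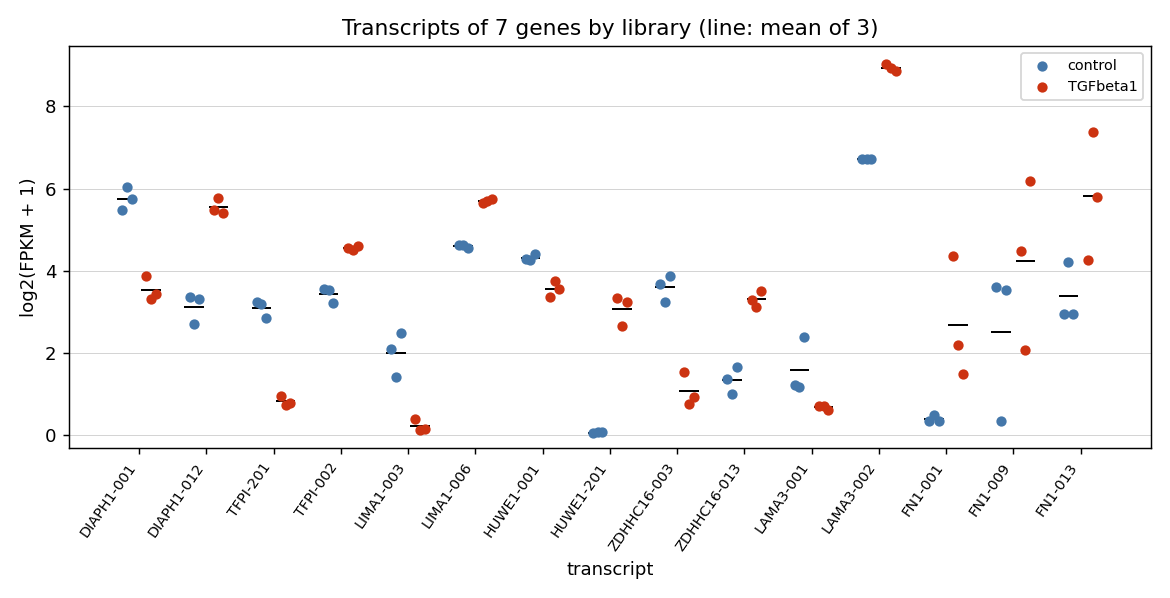
Levels of 15 transcripts of 7 genes in each library, as log2(FPKM + 1) on the y axis, with controls in blue, TGFbeta1 in red and a line at each mean of 3. The pairs of DIAPH1, TFPI, LIMA1, HUWE1 and ZDHHC16 move in opposite directions, LAMA3-002 rises while LAMA3-001 does not, and the FN1 transcripts scatter within the treated group.

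Promoters of the genes that moved most held a SMAD element, an AP-1 site, an E-box or a TATA box more often than those of all tested genes. That held in both directions of change. The background matters, since over all 27305 promoters, of genes tested or not, the shares were higher than over tested genes. They were 13.6% for the SMAD element, 6.6% for the AP-1 site, 17.5% for the E-box and 11.1% for the TATA box. Windows were the 250 bases before the first RefSeq start, for 8602 of 10454 genes. The SMAD element (CAGACA, either strand) was in 9.34% of all these promoters, in 8 of 42 genes higher by 2 or more (19%) and in 12 of 51 lower by 2 or more (23.5%). The AP-1 site (TGANTCA, either strand) was in 3.67% of all, in 7 of 42 (16.7%) and in 9 of 51 (17.6%). Over all called genes the shares were nearer the background, at 11.7% of 763 higher and 10.9% of 980 lower for the SMAD element. The other motifs searched on both strands were an E-box (CAGGTG), in 15.5% of all, 12 of 42 (28.6%) and 14 of 51 (27.5%), a TEAD element (GGAATG), in 9.03%, 4 of 42 (9.52%) and 6 of 51 (11.8%), and a TATA box (TATAAA), in 4.93%, 4 of 42 (9.52%) and 10 of 51 (19.6%). These are descriptions of letters in a window, with no test of the difference.

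A zero in this table need not mean a silent gene. Of 109 tested genes whose listed transcripts all have 1 exon, 62 (56.9%) were listed at 0 in some library, against 78 of 10220 (0.763%) genes with several exons. Of those 62, 45 were at 0 in 1 library or more and at 5 FPKM or more in another. No single-exon gene is named here as having risen or fallen. Called genes listed at 0 in every TGFbeta1 library were ATP6V1B1, CAPN14, CRNN, GABRP, SLURP1 and SPINK7. SPINK7, an epithelial protease inhibitor, was at 14.2, 16.2 and 20.8 FPKM in the controls and 0, 0 and 0 with TGFbeta1, and ATP6V1B1, a proton pump subunit, at 5.34, 5.09 and 4.93 FPKM in the controls and 0, 0 and 0 with TGFbeta1.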

How the data were processed

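RNA of MCF-12A cells was sequenced in 6 libraries, 3 labelled control and 3 labelled TGFbeta1. Reads were processed with FastQC, cutadapt, HISAT2 2.0.4 and StringTie 1.2.3 on hg19, per the submitters' processing notes. The authors deposited a value per transcript in a unit that the header does not name, read here as FPKM from the values, so sequencing depth is unknown and no counting interval can be given. An exact 0 may be a failed estimate. FPKM were summed per gene, and genes with a mean of at least 1 FPKM were tested on log2(FPKM + 1) in limma 3.58.1 (R 4.3.3, mean trend, two-sided, Benjamini-Hochberg over all genes tested), with calls at an adjusted p under 0.05. Transcripts were tested alike, and shares of transcripts at 5% or more of their gene after an arcsine square root. The fits were also run on simulated data with independent normal noise. Those runs held no exact zeros from failed estimates and no errors of read assignment, so they cannot speak to either. An exact permutation of 3 against 3 cannot go below p = 0.1. Alternatives changed the pseudocount, filter, scaling, limma settings, block or libraries, and 1 more, without single-exon genes, was chosen after seeing the data. The gene lists and members were chosen with earlier results of these data known. Most genes named were drawn from a set fixed by rule, and not all of that set are named. The set held the 20 largest rises and falls, anchor genes, up to 6 called members of each list, the largest share changes and ESRP targets, genes listed at 0 throughout a group, and called genes with the largest spread. Some list members that did not pass are also named. Other names (FBN1, ITGB4, ITGA1, ITGA3, SERPINH1, ADAM15, LCE3D, KRT6A, KRT7, KRT17, SPRR3, SPRR2D, SPRR2A, KLK11, CTU1, VSIG10L, TMPRSS4, ST14, SPINK5, MUC1, ESRP1, ESRP2, PRDM1, MTHFD1, BIRC3, CLDN12 and the paired and LAMA3 transcripts) were chosen after their values were seen. Promoters are from RefSeq on GRCh38.p14, matched for 8602 of 10454 genes, and were used for letters only. Plots were made with Python 3.11.15 and matplotlib 3.10.9. Some results are not reported here.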

Additional observations from a re-analysis of the deposited data

How the results depend on the processing

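Of the 2186 gene calls, a minimum log2 change of 1 left 533 (277 higher and 256 lower). Leaving out 1 library gave 1354 to 2030 calls, with 615 to 935 higher and 722 to 1095 lower. A minimum mean of 5 FPKM gave 625 higher. Transcript calls went from 1003 to 655 with no filter on low values and to between 406 and 784 with 1 library left out. Share calls went from 4 to 14 without the transform, to 8 with at least 5 FPKM in each group, and to between 0 and 6 with 1 library left out. Of 346 genes named by rule, 320 were called, 233 of these in every setting, and none changed sign while called. Median-of-ratios scaling gave 1071 higher and 982 lower, and quantile scaling 1037 and 971. Whether same-numbered libraries belong together is not stated. Their deviations from the group mean correlated at r = 0.0171, 0.0175 and 0.0075 over genes. Other pairs across groups were at -0.0261 to 0.0088, and such values cannot decide whether libraries were paired. With the replicate block 1211 genes (552 higher and 659 lower), 45 transcripts and 0 shares were called. In that fit 1071 shares had an unadjusted p under 0.05 in limma. The cause of these shifts was not tested. Depth is unknown, so low values carry no interval.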
